A study of Homo sapiens with 4 samples.

Results

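The 9 genes described here encode KMT2A, 5 of its fusion partners and 3 of its chromatin cofactors. KMT2A (formerly MLL) is a histone H3 methyltransferase of blood cell development. AFF1, AFF4, MLLT1, MLLT3 and ELL are fusion partners that also act in transcription elongation, and DOT1L, MEN1 and PSIP1 are cofactors. A probe set belonged to the group if its platform gene symbol was one of these names or an older alias, and the brightest by its mean was to be taken where a gene had more than 1. Each of the 9 genes had exactly 1 probe set of its own, so no choice between probe sets was needed. All 9 were among the 13070 genes that passed the filter on dim probe sets (a signal above the table median of 3.08 log2 units in at least 1 array), out of 53617 probe sets in all.

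The cells were MV4-11, an established acute myeloid leukaemia line that carries a KMT2A-AFF1 fusion. They were transduced with a control hairpin against luciferase or with 1 of 3 hairpins labelled as RUNX1 knockdown, moderate, profound 1 and profound 2. All were incubated for 24 h with doxycycline at 3 µM. The study asks how expression differs between depths of RUNX1 knockdown, RUNX1 being a DNA-binding transcription factor of blood cells. Each hairpin is represented by 1 array, so every group has 1 sample, no difference below has a replicate check, and precision is limited by the number of arrays.

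KMT2A fusion proteins keep the amino-terminal part of KMT2A, which binds menin (the product of MEN1) and, with it, the chromatin reader encoded by PSIP1. The partner part recruits elongation machinery. AFF1 and AFF4 are scaffolds of the super elongation complex, which joins ELL, MLLT1 or MLLT3 to the kinase P-TEFb, and MLLT1 and MLLT3 also bind DOT1L, a methyltransferase of the histone H3 core. In cells with a KMT2A-AFF1 fusion these proteins hold genes such as MEIS1 in a transcribed state. Probes of a KMT2A or AFF1 probe set that match sequence retained in the fusion transcript read that transcript together with those of the intact alleles, so neither signal separates fusion from intact transcripts.

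The labels were checked first. The RUNX1 probe set is also assigned to a second locus. In the control, moderate, profound 1 and profound 2 arrays it read 4.27, 4.33, 4.07 and 4.04 log2 units. Its differences from control were 0.06, -0.19 and -0.22. Against moderate, profound 1 and profound 2 were at -0.25 and -0.28, while moderate was not below control. The signal was close to the table median of 3.08, where RMA understates differences, so the depth of knockdown cannot be read from it. RUNX3 read 8.17, 8.28, 7.75 and 7.74, and RUNX2 had values from 6.16 to 6.33. Titles and genotypes give RUNX1 as the target of both profound hairpins but their descriptions give RUNX2 and RUNX3, so the arrays are called by their labels throughout. The words RUNX1 hairpin below repeat the genotype label, and the target was not settled here. The medians of the 4 arrays lay between 3.07 and 3.09. Of 10 measured myeloid markers 9 were above the table median in every array, among them the growth factor receptor gene FLT3 and the myeloid transcription factor gene SPI1, and the monocyte marker CD14 was below it in all. The summed log2 signals of these 10 markers lay between 72.3 and 73.0, and those of 10 markers of erythroid, lymphoid, epithelial and stromal cells between 30.2 and 30.8. Of the latter, 5 were above the table median in every array, and CD3E, EPCAM, CDH1 and PDGFRB were below it in all. The erythroid marker GATA1 read 3.95 in control and the myeloid marker ITGAM 3.78, so a signal above the table median does not by itself mark a cell type.

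Promoter sequence was examined for the 8 genes that have an entry in the RefSeq promoter table of build GRCh38.p14 (all but DOT1L), with 11 windows in all. The 250 bases before the annotated start are printed for KMT2A, from whose promoter the KMT2A-AFF1 fusion is transcribed, for PSIP1, which had the widest range of the 9 genes over the arrays, and for AFF4, which read higher in both profound arrays than in control and moderate. They are the window chr11:118436242-118436491 on the plus strand and the windows chr9:15510971-15511220 (the first of 2 listed for PSIP1) and chr5:132963635-132963884 on the minus strand, each written 5′ to 3′ in the direction of the gene. Capitals mark GC boxes (GGGCGG or CCGCCC) and an E-box (CACGTG).
KMT2A: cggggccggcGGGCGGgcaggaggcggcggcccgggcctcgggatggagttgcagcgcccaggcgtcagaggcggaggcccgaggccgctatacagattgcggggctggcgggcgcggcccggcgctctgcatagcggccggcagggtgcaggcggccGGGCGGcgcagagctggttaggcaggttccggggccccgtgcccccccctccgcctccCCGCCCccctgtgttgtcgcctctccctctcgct
PSIP1: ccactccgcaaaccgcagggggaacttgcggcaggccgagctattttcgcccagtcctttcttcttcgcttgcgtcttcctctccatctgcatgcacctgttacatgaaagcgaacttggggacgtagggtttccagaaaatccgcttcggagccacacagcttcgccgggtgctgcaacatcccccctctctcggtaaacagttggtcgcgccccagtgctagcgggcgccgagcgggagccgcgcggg
AFF4: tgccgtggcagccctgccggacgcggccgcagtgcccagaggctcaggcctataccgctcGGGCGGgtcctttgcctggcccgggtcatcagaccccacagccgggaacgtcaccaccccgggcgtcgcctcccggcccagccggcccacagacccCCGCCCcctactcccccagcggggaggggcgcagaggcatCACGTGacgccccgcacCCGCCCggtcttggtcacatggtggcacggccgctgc
The KMT2A window holds 3 GC boxes, the AFF4 window 3 GC boxes and an E-box, and the PSIP1 window shown none of the motifs searched.

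Most promoter windows of the group were richer in G and C than the median window of the promoter table. The comparison is with all windows of that table, and windows of the tested genes alone were not compared. The GC content of the 11 windows ran from 56.0% (a MEN1 window) to 78.4% (KMT2A), where the median of all 35116 windows of the table was 58.0%, and the number of CG pairs ran from 15 to 34 against a median of 11. A GC box lay in at least 1 window of all 8 genes and in 8 of the 11 windows, against 42.6% of all windows. A CCAAT box (CCAAT or ATTGG) lay in windows of AFF1, MEN1, MLLT1 and MLLT3, in 6 of 11 windows against 32% of all. The MEN1 windows overlap in part, so a site may be counted in both, and windows of the same gene are not independent. The E-box was found for AFF4 and MLLT1, in 2 of 11 windows against 6.34% of all. The core letters bound by RUNX factors (TGTGGT or ACCACA) were in 0 of the 11 windows and in 11% of all windows, and the E2F-type letters (TTTCCCGC, TTTGGCGC and their complements) in 0 of the 11 and 1.93% of all. Each motif was searched on both strands and on its own, so matches of different motifs may overlap, and the absence of a motif speaks only of these windows.

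Over the 4 arrays each of the 9 genes had a range of between 0.12 (MLLT1) and 0.59 log2 units (PSIP1). PSIP1 was lowest in the profound 1 array, DOT1L was lower in all 3 arrays of RUNX1 hairpins and lowest in profound 1, and AFF4 was higher in both profound arrays than in control and moderate. KMT2A, AFF1 and MLLT3 were lowest in profound 2, while MLLT1, MEN1 and ELL stayed within a range of 0.14 log2 units or less. Sizes are given as differences of log2 RMA signals, and 1.5-fold corresponds to 0.585. As a yardstick, each difference was set beside a robust SD, the scaled median absolute deviation, of that difference among tested genes of like level, in 6 level classes. This spread holds noise and real differences together. The shares of genes lying at least as far from control are instead over tested genes of every level. In profound 2 against control the spread was 0.26 in the dimmest class and 0.127 in the brightest, so the 2 yardsticks can rank genes differently.

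**Figure D1:**
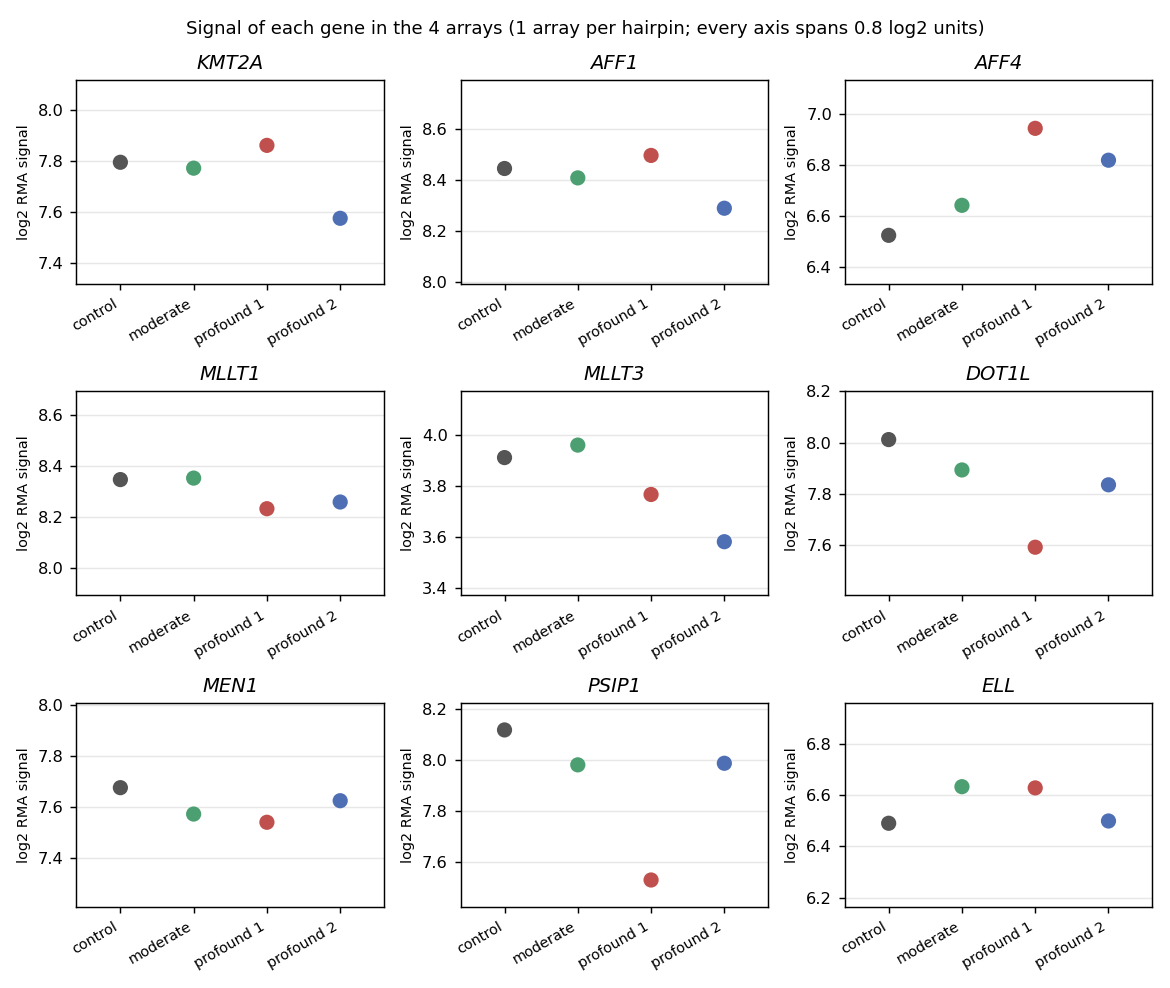
The log2 RMA signal (vertical axis) of each of the 9 genes in the control, moderate, profound 1 and profound 2 arrays (horizontal axis), 1 point per array and no error bar because each hairpin has 1 array. PSIP1 and DOT1L are lowest in profound 1, AFF4 is higher in both profound arrays than in the other two, and KMT2A and AFF1 share their order of arrays.

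KMT2A itself read 7.80 in the control array, 7.77 in moderate, 7.86 in profound 1 and 7.58 in profound 2. Only the profound 2 array stood off, 0.22 below control, where like genes had a spread of 0.13, and 13.8% of the tested genes lay at least as far below control. The order from low to high was profound 2, moderate, control, profound 1, and of these neighbours only profound 2 and moderate differed by more than their spread (0.20 against 0.13).

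AFF1, the fusion partner in this line, read 8.44, 8.41, 8.49 and 8.29 in the control, moderate, profound 1 and profound 2 arrays. It was also lowest in profound 2, by 0.16 against control where the spread was 0.13, and no neighbouring arrays in its order differed by more than their spread. KMT2A and AFF1 thus had the same order of arrays. With each gene centred on its own mean, their 4 values lay 0.06 log2 units apart (Euclidean distance). Of the other tested genes, 0.73% lay nearer to KMT2A than AFF1 did, and 1.3% nearer to AFF1 than KMT2A did. This pair was singled out after its values were seen, and with 4 arrays many genes share such a pattern: 95 genes were nearer to KMT2A than AFF1.

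AFF4, the scaffold that is the paralogue of AFF1, read 6.53 in control, 6.64 in moderate, 6.94 in profound 1 and 6.82 in profound 2. Both profound arrays were above both others. The differences from control were 0.42 in profound 1 (1.34-fold, spread 0.26) and 0.29 in profound 2 (1.23-fold, spread 0.16), and 6.95% and 8.91% of tested genes lay at least as far above it. These comparisons share the control array. With no array in common, profound 1 against moderate gave 0.30 and profound 2 against control 0.29. The other such split, profound 1 against control and profound 2 against moderate, gave 0.42 and 0.18. Each difference was beyond its spread. Their positive signs follow from both profound arrays lying above both others. Such a placement, above or below, held for 37.4% of tested genes. Both splits use the same arrays, so the other split is no separate check. The share of tested genes with each of these differences beyond its spread was not counted. The array labelled moderate was 0.12 above control, within the spread of 0.13. AFF4 did not follow AFF1: 65.9% of the tested genes lay nearer to AFF1 than AFF4 did.

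ELL, an elongation factor of RNA polymerase II, read 6.49, 6.63, 6.63 and 6.50 in the control, moderate, profound 1 and profound 2 arrays. The moderate and profound 1 arrays lay 0.14 above control, within the spreads of 0.16 and 0.28, and profound 2 lay 0.01 above it. No pair of neighbours in its order differed beyond the spread.

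MLLT1 and MLLT3 encode paralogous readers of acylated histones with a YEATS domain. MLLT1 read 8.35 in control, 8.35 in moderate, 8.23 in profound 1 and 8.26 in profound 2. Both profound arrays were lower than both others, but by 0.11 and 0.09 against control, within the spreads of 0.22 and 0.13. MLLT3 read 3.91, 3.96, 3.77 and 3.58 in the same order of arrays, close to the table median of 3.08, where RMA understates differences. It was 0.14 below control in profound 1 (spread 0.28) and 0.33 below in profound 2 (spread 0.25), and 6.33% of tested genes lay at least as far below control in profound 2. Against moderate, profound 2 was 0.38 lower, beyond the spread of 0.27, but none of its neighbouring arrays differed beyond the spread.

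DOT1L read 8.01 in control, 7.89 in moderate, 7.59 in profound 1 and 7.83 in profound 2. All 3 arrays of RUNX1 hairpins were below control, by 0.12 in moderate (spread 0.11), 0.42 in profound 1 (1.34-fold, spread 0.22) and 0.18 in profound 2 (spread 0.13). In the 3 arrays 22.3%, 8.43% and 18.3% of tested genes lay at least as far below control. Profound 2 and moderate, neighbours in its order, differed by 0.06, within their spread of 0.13. With no array shared, profound 1 against moderate and profound 2 against control gave -0.30 and -0.18. Profound 1 against control and profound 2 against moderate gave -0.42 and -0.06, the last within its spread. The negative signs follow from both profound arrays lying below both others. Both splits use the same arrays, so they are not separate checks.

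MEN1 read 7.67, 7.57, 7.54 and 7.62 in the control, moderate, profound 1 and profound 2 arrays. Control was highest, and the arrays of RUNX1 hairpins lay 0.10, 0.14 and 0.05 below it, all within the spreads of 0.13, 0.26 and 0.16.

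PSIP1, whose product tethers menin and KMT2A to chromatin, had the widest range of the group, 0.59 log2 units. It read 8.12 in control, 7.98 in moderate, 7.53 in profound 1 and 7.99 in profound 2. The profound 1 array stood apart from the other 3, while moderate and profound 2 were 0.01 apart. Against control, profound 1 was 0.588 lower (1.5-fold, spread 0.22), just past the 1.5-fold limit of 0.585, and 4.02% of tested genes lay at least as far below control. After cyclic loess scaling of the arrays the difference was -0.576, short of that limit. Profound 1 was also 0.45 below moderate (spread 0.19) and 0.46 below profound 2 (spread 0.21). The differences of moderate and profound 2 from control, -0.14 and -0.13, were just beyond spreads of 0.11 and 0.13.

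**Figure D2:**
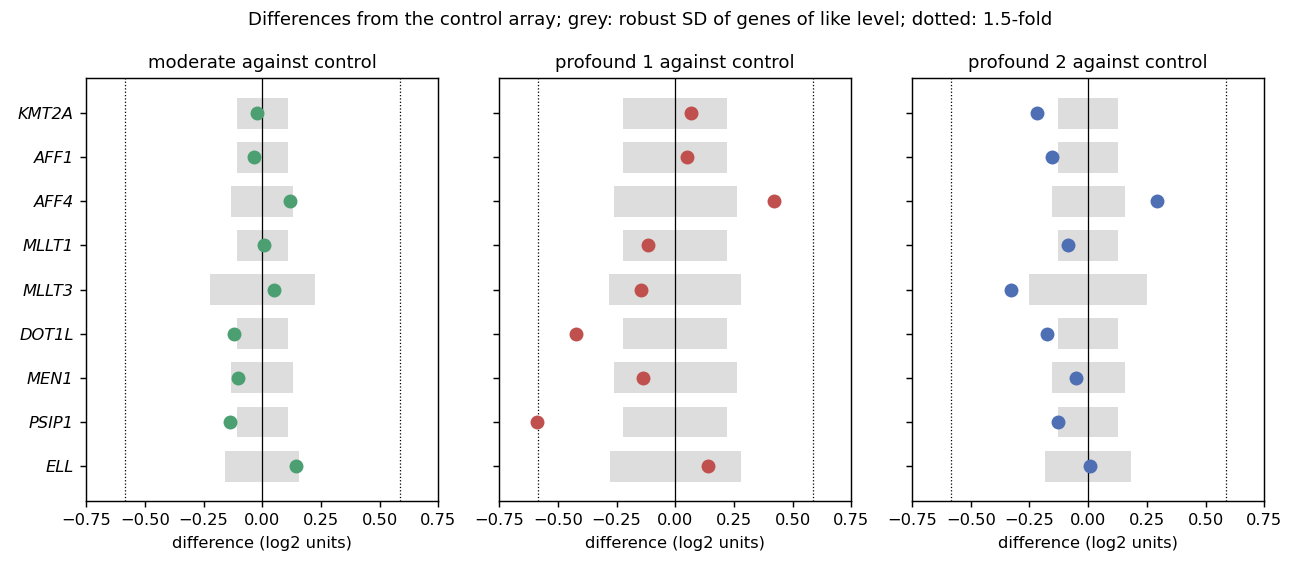
Differences from the control array in log2 units (horizontal axis) for the 9 genes (rows), in panels for the moderate, profound 1 and profound 2 arrays; grey bars reach 1 robust SD of tested genes of like level to either side of 0 and dotted lines mark 1.5-fold. Only PSIP1 in profound 1 touches the 1.5-fold line, and AFF4, DOT1L and PSIP1 lie outside the grey bar in both profound panels.

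At 1.5-fold, 1 of the 9 genes differed from control in profound 1 (PSIP1, lower), where 6.82% of all tested genes did, and 0 did in moderate (1.46% of tested genes) or in profound 2 (2.41%). None differed at 1.5-fold in both profound arrays (0.689% of tested genes), between profound 1 and profound 2 (5.35%), or between moderate and profound 1 (5.29%) or profound 2 (2.88%). At a smaller limit of 0.32 log2 units, the count was 3 in profound 1 (PSIP1, DOT1L and AFF4, against 25.1% of tested genes), 1 in profound 2 (MLLT3, against 14.1%) and 0 in moderate (10.9%). It was 1 between profound 1 and profound 2 (PSIP1, against 23.7%), 1 between profound 1 and moderate (PSIP1, against 22%) and 1 between profound 2 and moderate (MLLT3, against 16%). At 2-fold it was 0 in profound 1 against control, where 0.803% of tested genes passed. Just inside this smaller limit lay MLLT3 in profound 2 (-0.33), and just outside it AFF4 in profound 2 (0.29). These counts are near the shares over all genes.

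By the spread of their level class, 2 of the 9 differed from control in moderate, 3 in profound 1 and 6 in profound 2, where 32.8%, 32.5% and 33.2% of tested genes did. The 6 in profound 2 were AFF4, higher, and KMT2A, AFF1, MLLT3, DOT1L and PSIP1, lower. In both profound arrays with the same sign, 3 did (AFF4, DOT1L and PSIP1, against 12.8% of tested genes), and in all 3 arrays of RUNX1 hairpins 2 did (DOT1L and PSIP1, against 6.79%). PSIP1 passed only narrowly in profound 2, at -0.1306 against a spread of 0.127. The counts that include it rest on that margin and were not recounted under other processing. Both profound arrays lay outside both others for 4 genes, AFF4 above and MLLT1, MLLT3 and DOT1L below, where 37.4% of all tested genes are so placed. The control array was the highest or lowest of the 4 for 5 genes (AFF4, DOT1L, MEN1, PSIP1 and ELL, against 46.3% of tested genes), and for these a deviation of the control array and a shared change of the other arrays cannot be told apart.

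The median difference of the 9 genes from control was -0.02 in moderate, -0.11 in profound 1 and -0.13 in profound 2, where the medians over all tested genes were 0.01, 0.00 and 0.00. Against control, 4 genes were higher and 5 lower in moderate and in profound 1, and 2 were higher (AFF4 and ELL) and 7 lower in profound 2. Between the profound arrays the median was 0.13, against -0.01 over all tested genes, with 5 genes higher in profound 1 and 4 lower. KMT2A was 0.29 higher in profound 1 (spread 0.21), while PSIP1 and DOT1L were 0.46 and 0.24 lower. The shares of all tested genes that were higher or lower were not counted, so these counts of direction only describe the 9 genes.

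**Figure D3:**
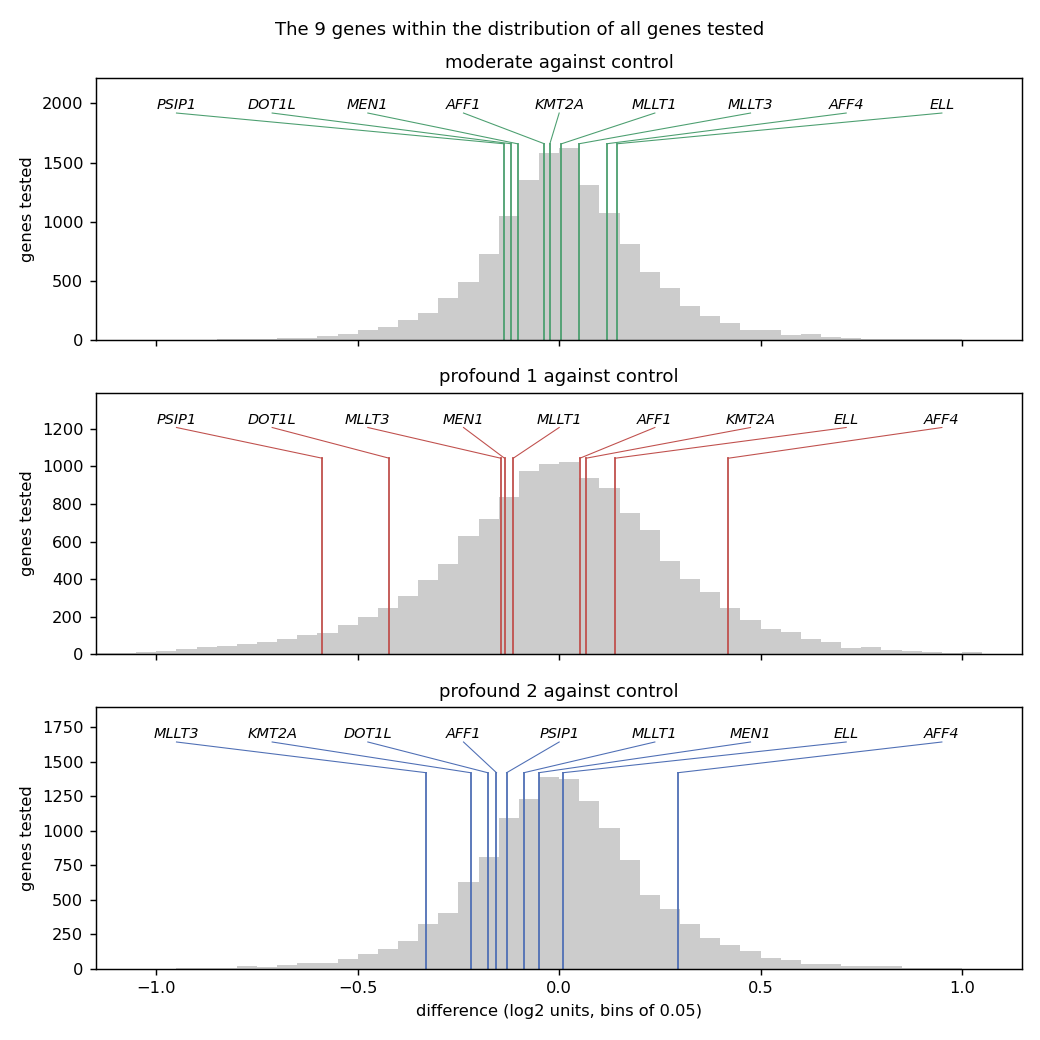
Number of tested genes (grey bars, vertical axis) by difference from the control array in log2 units (horizontal axis, bins of 0.05), with a coloured line at the value of each of the 9 genes, for moderate, profound 1 and profound 2. The lines lie within the body of each distribution, with PSIP1 at -0.59 in profound 1 the furthest out.

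The genes most like PSIP1 over the 4 arrays were sought among all tested genes, each centred on its own mean. The nearest was CHAF1A, a subunit of the chromatin assembly factor that acts at replication, at a distance of 0.01, which read 8.43, 8.30, 7.84 and 8.31 in the control, moderate, profound 1 and profound 2 arrays. It was followed by RRM1, a ribonucleotide reductase subunit (distance 0.02), and NCAPH2, a condensin subunit (0.03), where the median distance of tested genes was 0.49. DOT1L lay 0.16 from PSIP1, with 3.01% of tested genes nearer. The genes nearest to DOT1L, next in range, were FAM20B, PSD3 and TXNDC12, each at 0.03, where the median distance was 0.38. Likeness over 4 arrays is a description of these arrays.

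G1/S and DNA replication genes moved in the same array. Of 24 tested genes of that list, 21 were at least 1.5-fold lower than control in profound 1, where 6.82% of all tested genes differed in either direction. The medians of the list were -0.21 in moderate, -0.92 in profound 1 and -0.18 in profound 2. The cyclin gene CCNE2 read 7.97, 7.45, 6.41 and 7.94. RRM1 is a member of that list, and its differences from control (-0.15, -0.58 and -0.12) lay next to those of PSIP1 (-0.14, -0.59 and -0.13). It had been picked for its nearness to PSIP1 over these same arrays, so this closeness follows from the choice. Whether the lower level of the G1/S list has a part in the PSIP1 and DOT1L differences was not tested. In these bulk samples, fewer cells in a state and less RNA per cell cannot be told apart.

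**Figure D4:**
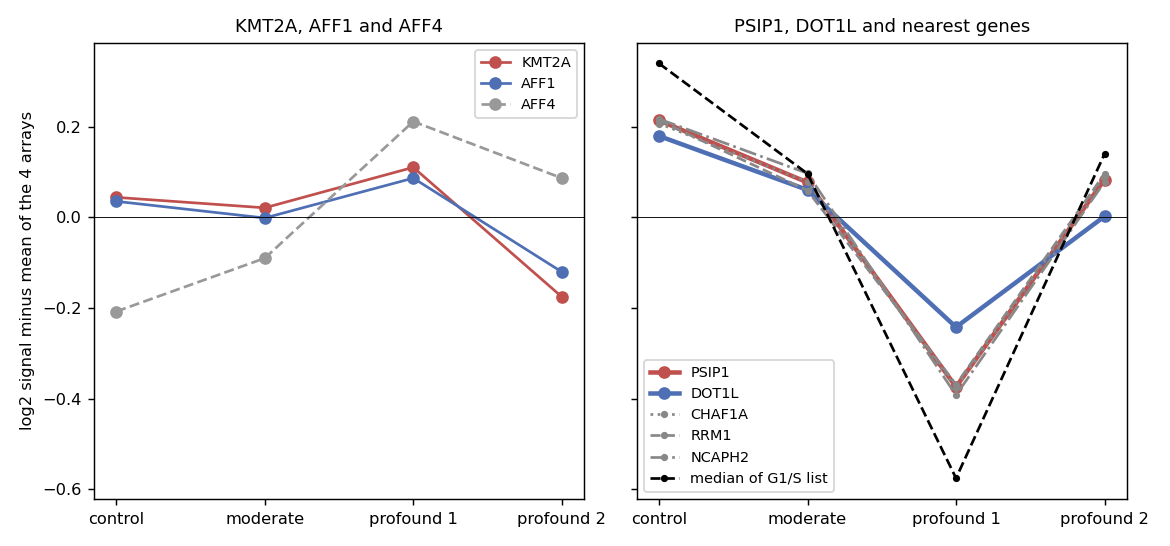
Log2 signal minus the gene's own mean over the 4 arrays (vertical axis) in each array (horizontal axis); left, KMT2A, AFF1 and AFF4; right, PSIP1, DOT1L, the 3 genes nearest to PSIP1 and the median of the 24 G1/S genes. KMT2A and AFF1 run side by side with their lowest value in profound 2, and PSIP1 runs with CHAF1A, RRM1 and NCAPH2, all lowest in profound 1 as the G1/S median is.

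Other subunits of the same machinery were described by lists. Of the super elongation complex and P-TEFb, 12 genes were tested, and 0 were 1.5-fold different from control in any array. Over all tested genes the shares were 1.46%, 6.82% and 2.41% in moderate, profound 1 and profound 2, so a count of 0 in a list this short is near them. These shares also hold for the lists below. The medians of the 12 genes were 0.04, 0.11 and 0.03 in moderate, profound 1 and profound 2. CCNT1, a cyclin of P-TEFb, read 7.66 in control and 7.17 in profound 1 (-0.49) but 7.51 in profound 2 (-0.16). CCNT2, another P-TEFb cyclin gene, named after its value was seen, was at 0.34 and -0.08 in profound 1 and profound 2. MEPCE, the capping enzyme of the RNA that holds P-TEFb inactive, was at -0.22 and 0.02. On the higher side were EAF1 (0.26 and 0.04), an ELL-associated factor, and ELL2 (0.12 and 0.19), a paralogue of ELL. The list of PAF1 complex and pausing factors, 11 genes, also held 0 at 1.5-fold, with medians of 0.03, 0.00 and -0.03. By the mean difference in both profound arrays, its lowest genes were the pausing factor gene NELFCD (-0.31 and -0.04) and LEO1 (-0.09 and -0.04). Its highest by that mean were the elongation factor genes SUPT5H (0.30 and 0.04) and SUPT4H1 (0.18 and -0.03).

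Of the KMT2 methyltransferase complexes, 19 genes were tested and the medians were -0.03, -0.08 and -0.10 in moderate, profound 1 and profound 2. RBBP5, a core subunit shared by KMT2 enzymes, was the 1 gene at 1.5-fold, at 7.59 in control, 7.46 in moderate, 6.75 in profound 1 and 7.45 in profound 2, and so, like PSIP1, stood apart in profound 1. WDR5, another core subunit, differed from control by -0.40, -0.45 and -0.39 in moderate, profound 1 and profound 2, and read 6.10, 6.05 and 6.11 in these 3 arrays against 6.50 in control. ASH2L, also a core subunit, was at 0.15 and 0.18 in the profound arrays and the acetyltransferase gene KAT8 at 0.26 and 0.11.

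Among 5 tested genes of the DOT1L complex and YEATS readers, the medians were -0.04, -0.28 and -0.06. MLLT6, a paralogue of the DOT1L partner MLLT10, was at -0.28 and -0.18 in profound 1 and profound 2, YEATS2 at -0.38 and -0.06, MLLT10 at -0.01 and -0.03 and BCOR, a corepressor, at -0.03 and -0.06. The 1 gene at 1.5-fold was YEATS4 in moderate (-0.65), named after its value was seen.

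Of the other KMT2A fusion partners, 31 were tested, with medians of 0.03, 0.09 and -0.10 in moderate, profound 1 and profound 2. KNL1, a kinetochore protein gene, was 1.5-fold lower in profound 1 (-0.73, and -0.26 in profound 2), and SEPTIN11 was at -0.41 and -0.27. CBL, a ubiquitin ligase of receptor signalling, was at 0.53 and 0.11, and the endocytic adaptor gene PICALM at 0.30 and 0.18. SEPTIN2, a cytoskeletal GTPase gene chosen after its value was seen, was the 1 gene at 1.5-fold in profound 2 (7.34, 7.42, 7.65 and 6.65 over the 4 arrays).

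Of 18 listed target genes of KMT2A fusions, 12 were tested. At 1.5-fold 0 differed from control in any array, where 1.46%, 6.82% and 2.41% of all tested genes did in moderate, profound 1 and profound 2. The medians of the 12 genes were 0.02, 0.04 and -0.09. MEIS1, a homeobox cofactor gene, read 6.59, 6.63, 6.25 and 6.34, and the apoptosis inhibitor gene BCL2 was at -0.39 and -0.36 in the profound arrays. CDK6, a G1 kinase gene, was at 0.41 and 0.27 and the demethylase-family gene JMJD1C at 0.18 and 0.00. The HOXA genes of the list were not analysed here.

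**Figure D5:**
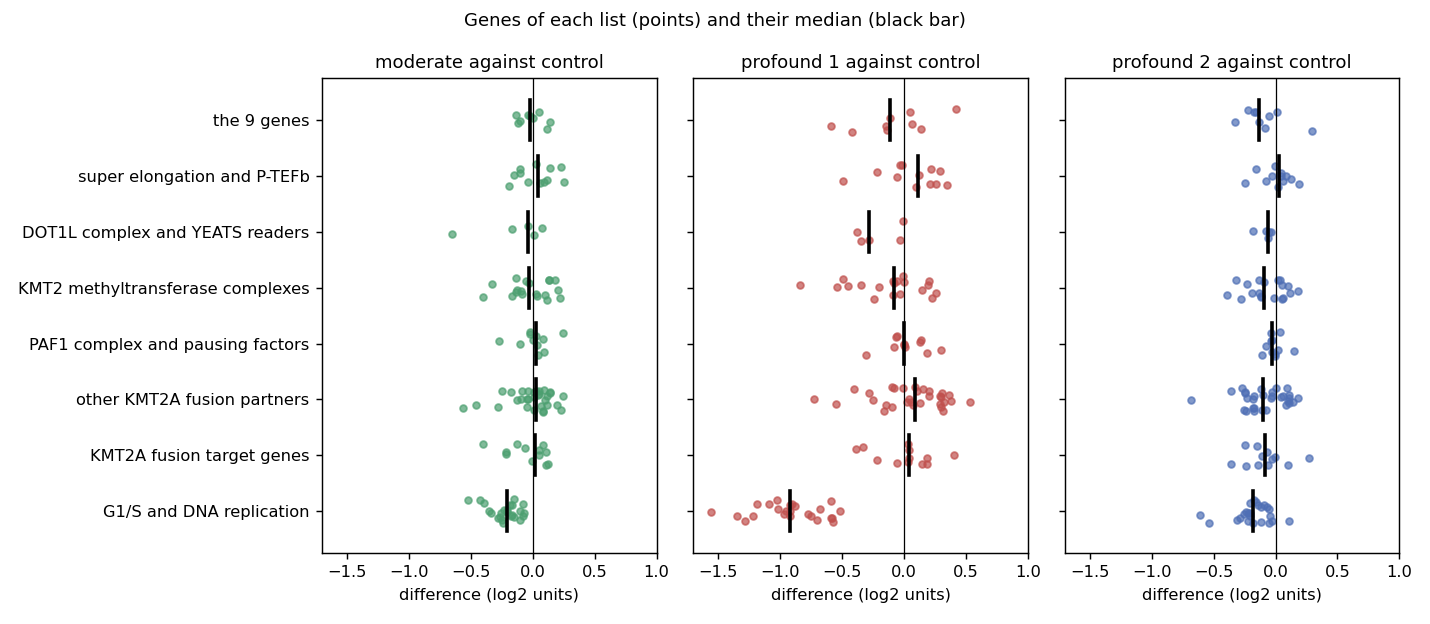
Differences from the control array in log2 units (horizontal axis) of the genes of each list (rows, 1 point per tested gene, black bar at the median) for moderate, profound 1 and profound 2. The G1/S list lies far below 0 in profound 1 (median -0.92). The 9 genes and the other lists have medians between -0.28 (DOT1L complex and YEATS readers in profound 1) and 0.11 in the 3 panels.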

How the data were processed

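The values are log2 signals that the authors deposited for 53617 probe sets on 4 whole-transcript arrays. The submitters' processing notes name RMA, Transcriptome Analysis Console 1.0 and Affymetrix Expression Console 1.3.1. The quantile step of RMA hides a change of most genes at once, and its floor shrinks differences of dim probe sets. The genome build was not given in the sources used here. Groups follow the genotype field, with 1 array each and 0 unused columns.

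The platform annotation lists 1 symbol for 23871 probe sets, several for 1842 and none for 27904, and symbols were updated with the RefSeq table of GRCh38.p14 (88 through the Entrez ID, 565 through a synonym). Probe sets with several symbols named no gene, apart from that of RUNX1. Symbols of small or antisense RNAs, of immune receptor segments and of predicted or unnamed reading frames were dropped, which with the filter on dim probe sets left 13070 tested genes.

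With 1 array per group no test was made. A gene was counted at 1.5-fold. For both profound arrays together, each had to pass, in 1 direction. Named genes were the 9 genes, the RUNX genes, the 2 highest and 2 lowest tested genes of each of 7 lists by their mean difference in both profound arrays, and the 3 genes nearest to each of the 2 genes of widest range. The members, lists and motifs were chosen with earlier results of these data known. The count of arrays lying outside others, the KMT2A and AFF1 pair and the 3 promoters printed were chosen after the values were seen. Alternatives were cyclic loess (limma 3.58.1), centring each array on its median, 2 other filters, the mean of all probe sets of a gene, and limits of 0.32 log2 units and of 2-fold.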

Additional observations from a re-analysis of the deposited data

How the results depend on the processing

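No paired analysis was possible because each group has 1 array, all numbered as replicate 1, so the groups share fewer than 2 replicate numbers, and no replicate could be left out. The count of the 9 genes past the limit in profound 1 against control was 1 at 1.5-fold, 0 after cyclic loess, where PSIP1 fell to -0.576 and missed the limit, 3 at the limit of 0.32 log2 units and 0 at 2-fold. At the limit of 0.32 it was 1 in profound 2 against control, 1 in profound 1 against profound 2, 1 in profound 1 against moderate and 1 in profound 2 against moderate, each against 0 at 1.5-fold. The median difference of the 9 genes under centring was -0.06 in moderate against control (-0.02 as deposited), -0.0036 in profound 1 against moderate (-0.03 as deposited) and -0.06 in profound 2 against moderate (-0.09 as deposited). Scaling moved single differences by at most 0.0381 log2 units (centring) or 0.0255 (cyclic loess), and the sign changed in 2 and 1 of 54 differences, none larger than 0.0057. The share of tested genes nearer to KMT2A than AFF1 ran from 0.66% to 0.75%. The median of the markers of other cells in moderate against control was 0.04 without the filter on dim probe sets and -0.07 with it. Signal over background was not measured here.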
